A study of Lytechinus variegatus with 64 samples.

Results

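The axial gland and the gut of the adult sea urchin Lytechinus variegatus were compared across all genes, from the 4 libraries labelled axial gland and the 4 labelled gut among the 64 libraries of a tissue atlas. Both groups came from wild type adults bought from a supplier in Florida, dissected and stored in Trizol, and no treatment, age or sex was given for them. RNA with polyA tails was sequenced in bulk, and reads were counted per gene. The labels do not say whether the 4 libraries of a tissue came from separate animals or from pooled ones, so the p-values below reflect library-to-library spread alone, and that spread could be technical. Lines of the count table whose identifier held a semicolon or that lacked counts were dropped, 3 of 25890, which left 25887 genes.

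The axial gland is a spongy organ of the axial complex, a strand of tissue that runs beside the stone canal and joins the hemal (blood-like) system of the animal. It has long been linked to the free cells of the body fluid, the coelomocytes, and to filtering of that fluid. The gut digests and absorbs food, and the esophagus before it and the rectum after it are the other stretches of the tract sampled here. The files give genes by locus identifier without product names, and no named marker genes could be looked up. The labels were therefore checked by how alike whole profiles were, and no function is given for any gene below.

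Axial gland totals ran from 26689030 to 32902340 counts and gut totals from 23715190 to 34369829. The 10 most abundant genes took 15.2% to 22.2% of the counts of an axial gland library. In gut they took 17.6% to 22.5% in replicates 1, 3 and 4 and 46.4% in replicate 2. Levels are given as CPM, counts scaled to a common library total by TMM (a trimmed mean of ratios between libraries) over all 64 libraries. This scaling takes the difference in composition into account, with a factor of 0.267 for gut replicate 2 and 0.594 to 0.779 for the other gut libraries. In gut replicate 2, 3 counts amount to 0.474 CPM. Shares of counts given below are not scaled in this way. In bulk tissue, fewer cells of a type and less RNA per cell cannot be told apart.

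The 4 axial gland libraries did not share one profile, and this bears on each result that follows. Over the 21517 genes that reached a mean of 1 CPM in a sample type, each library was set against the mean profile of each type, leaving itself out, by Spearman's rho across genes. Replicate 1 lay nearest to rectum (rho 0.910), ahead of gut (0.832), and its own type came sixth with 0.788. Its 3 most similar single libraries were the 3 rectum libraries, with 0.907, 0.890 and 0.870.

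Replicate 2 lay nearest to radial nerve, the nerve cord along each ray of the body, with rho 0.915 against 0.803 for the other axial gland libraries and 0.701 for gut. Its closest single library was radial nerve replicate 1, at 0.953. Replicate 3 lay nearest to esophagus (0.911) and then to its own type (0.876). Replicate 4 lay nearest to its own type (0.917) and almost as near to esophagus (0.909). Library by library, it stood at 0.923, 0.861 and 0.785 with axial gland replicates 3, 2 and 1. With esophagus replicate 2 it stood at 0.892, so of its own type only replicate 3 was closer. These nearest types were the same over 15538 genes that reached 10 CPM in a type, and over 21200 genes outside the tract gene sets described below.

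**Figure D1:**
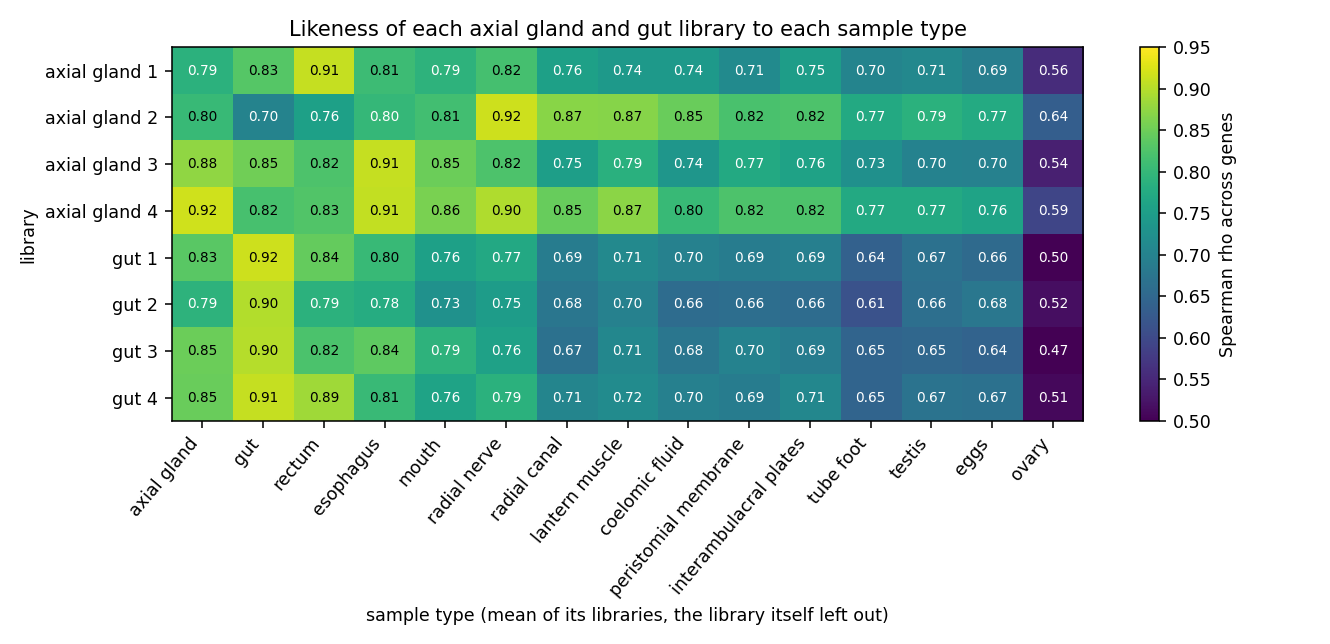
Spearman rho across genes between each of the 8 libraries (rows) and the log2 of the mean CPM of each sample type (columns). The library itself was left out of its own type. Axial gland replicates 1, 2 and 3 have their highest values under rectum (0.910), radial nerve (0.915) and esophagus (0.911), and the 4 gut libraries have theirs under gut.

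Pairs of axial gland libraries ranged in rho from 0.748 to 0.923, with a median of 0.782. Replicates 3 and 4 were the pair at 0.923. Gut pairs ranged from 0.863 to 0.902, and among all 13 other adult types the least alike pair of a type stood at 0.850, in radial nerve. Pairs of 1 axial gland and 1 gut library spanned 0.680 to 0.870, so some of them were more alike than the axial gland libraries were among themselves. Whether the labels, the dissection or the tissue itself set these differences was not tested, and axial gland below means the 4 libraries so labelled.

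Across all genes, the 4 against 4 comparison called few genes. With edgeR's quasi-likelihood test, 6 of 17206 genes tested were higher in axial gland (0.0349%) and 17 were lower (0.0988%), together 23 genes (0.134%). A gene was called where its Benjamini-Hochberg adjusted p lay under 0.05 and its log2 fold change was 1 or more in size. An unadjusted p under 0.05 was reached by 3883 genes. Over tested genes the median log2 fold change came to 0.11. In 1270 genes (7.38%) every axial gland library lay above every gut library, and in 1305 (7.58%) every gut library lay above every axial gland library.

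The count of called genes depended on the libraries and the test. Without axial gland replicate 1, 464 genes were higher (2.6% of 17877) and 436 lower (2.44%). Without axial gland replicates 1 and 3, a choice made after the data had been seen, 702 were higher (3.74% of 18747) and 607 lower (3.24%). Leaving out any one of the other libraries left at most 1 called gene. DESeq2's Wald test on the same libraries called 1312 higher (7.63%) and 1072 lower (6.23%), and edgeR in 1 fit of 53 adult libraries, which shares 1 estimate of spread among 14 types, called 2175 higher (9.3% of 23383) and 834 lower (3.57%). All 23 genes called in the 4 against 4 comparison were also called by DESeq2 and in both of the smaller comparisons just named.

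The 6 genes higher in axial gland rose by 2.46 to 3.50 on the log2 scale and were protein-coding. LOC121431648 had 29.7, 27.2, 48.7 and 49.98 CPM in axial gland replicates 1 to 4 and 3.35, 2.53, 2.24 and 5.31 CPM in gut replicates 1 to 4. The groups did not overlap, and the gene rose by 3.50 on the log2 scale (SE 0.431, edgeR adjusted p = 0.0371). This gene was at its highest elsewhere in lantern muscle, the muscle of the jaw apparatus, with a mean of 394.8 CPM.

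LOC121432030 had 40.1, 89.5, 47.1 and 99.6 CPM in axial gland and 8.73, 5.69, 9.12 and 8.21 CPM in gut, a rise of 3.07 on the log2 scale (SE 0.413, edgeR adjusted p = 0.0442). Replicates 2 and 4 were the high axial gland libraries. Its mean in lantern muscle was 164.7 CPM and in radial nerve 138.1 CPM, both above its axial gland mean of 69.1 CPM. LOC121416153 had 51.6, 36.8, 56.0 and 82.1 CPM in axial gland and between 9.65 and 10.3 CPM in all 4 gut libraries, a rise of 2.46 on the log2 scale (SE 0.344, edgeR adjusted p = 0.0477). It was higher still in radial canal, the water vessel that supplies the tube feet, at a mean of 208.4 CPM.

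LOC121431073 had 16.9, 26.3, 11.7 and 12.3 CPM in axial gland and 2.41, 1.90, 1.81 and 1.80 CPM in gut. The single coelomic fluid library held 58.7 CPM of it, more than any adult type. LOC121415389 rose by 2.68 on the log2 scale, from a gut mean of 1.87 ± 0.445 CPM (SD, n = 4) to 12.4 ± 2.34 CPM (SD, n = 4), and had 37.5 CPM in the single coelomic fluid library. Its radial canal mean was close to that, at 36.4 CPM, and radial canal replicate 3 was the highest library outside axial gland and gut, at 60.4 CPM. LOC121425253 rose by 2.97, from 1.44 ± 0.425 CPM to 11.6 ± 3.11 CPM (SD, n = 4 each), and had a mean of 68.6 CPM in radial canal, whose replicate 3 held 155.8 CPM. Each of the 6 genes thus had a higher mean in another sample type than in axial gland.

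The 17 genes lower in axial gland had log2 differences of -11.35 to -3.40, and 9 of them belonged to the gut gene set described below. LOC121416915 had 0 counts in all 4 axial gland libraries and 10.7, 18.3, 21.8 and 7.91 CPM in gut. Set against 3 counts in the axial gland library where these weigh most (0.138 CPM), it was at least 106.5-fold lower. LOC121409903 also had 0 counts in axial gland, with 12.3, 17.7, 8.80 and 10.5 CPM in gut, at least 89.4-fold lower. The limit covers counting error only. Both had an edgeR adjusted p of 0.0345.

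LOC121408720 had 3 counts in all over the 4 axial gland libraries, while gut held 113.7, 114.2, 47.6 and 8.72 CPM. Gut replicate 4 was its lowest gut library and still lay far above the highest axial gland value of 0.0812 CPM. LOC121428417 had 0.424, 0.0812, 0.644 and 1.02 CPM in axial gland and 91.5, 80.5, 67.2 and 58.0 CPM in gut, a log2 difference of -7.12 (SE 0.760, edgeR adjusted p = 0.0345). LOC121419234 was at 54.8 to 101.1 CPM in gut and at no more than 0.736 CPM in axial gland, a value found in replicate 3. LOC121415431 was at 6.36 to 17.9 CPM in gut and at no more than 0.0812 CPM in axial gland.

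Among the more abundant genes, LOC121415615 had 1458, 631.3, 628.7 and 321.8 CPM in gut and 2.33, 6.94, 11.5 and 5.62 CPM in axial gland, a log2 difference of -6.87 (SE 0.788, edgeR adjusted p = 0.0345). LOC121413808 had 905.3, 794.2, 535.9 and 633.0 CPM in gut and 66.5, 20.4, 61.4 and 32.1 CPM in axial gland, a log2 difference of -4.02 (SE 0.537, edgeR adjusted p = 0.0442). It was not confined to gut, with means of 124.3 CPM in mouth and 123.8 CPM in rectum. LOC121417845 fell by 5.78 on the log2 scale, from 113.4 ± 41.9 CPM in gut to 2.12 ± 1.32 CPM in axial gland (SD, n = 4 each). LOC121418576 fell by 3.40, from 122.7 ± 55.3 CPM to 11.9 ± 2.73 CPM (SD, n = 4 each), and was the named gene on this side outside the gut set.

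**Figure D2:**
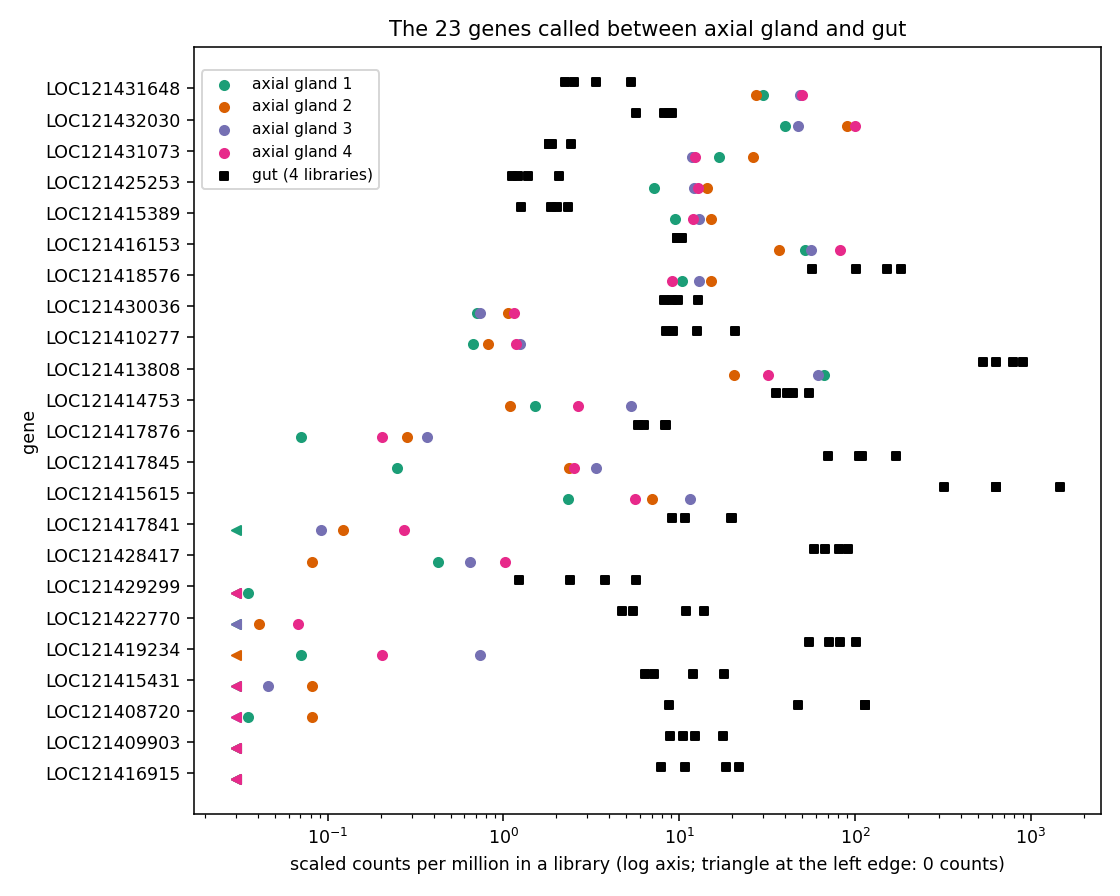
Scaled counts (CPM), on a log axis, of the 23 called genes in each library, with axial gland libraries as coloured circles and gut libraries as black squares. Triangles at the left edge mark axial gland libraries with 0 counts, and no gene has an axial gland value between its lowest and highest gut values.

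The axial gland libraries were also read one at a time against gut. The base was the 12732 genes that reached 10 CPM in at least 1 of the 8 libraries. Genes at 10 CPM or more and at least 4-fold above all 4 gut libraries (0.5 CPM added) numbered 232 in replicate 1 (1.82%), 935 in replicate 2 (7.34%), 367 in replicate 3 (2.88%) and 535 in replicate 4 (4.2%). Of these, 5 genes (0.0393%) passed in all 4 libraries, against 1551 (12.2%) in at least 1. Genes at 10 CPM or more in every gut library and at least 4-fold lower in axial gland numbered 305 (2.4%), 1044 (8.2%), 270 (2.12%) and 501 (3.93%). Such lower genes numbered 111 (0.872%) in all 4 libraries and 1144 (8.99%) in at least 1. This is a description with no test, and its thresholds were chosen after the data had been seen.

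Replicates 1 and 3 shared 12 of these higher genes, 5.17% of the first list and 3.27% of the second, where 2.88% and 1.82% of all 12732 genes passed in replicates 3 and 1. Replicates 3 and 4 shared 198, which was 53.95% of the replicate 3 list and 37.0% of the replicate 4 list. The lower lists overlapped more, and each of the other lists lay mostly within that of replicate 2, the longest. Of the lower genes of replicates 1, 3 and 4, 79.7%, 90.4% and 95.01% were also lower in replicate 2, where 8.2% of all genes were. Only genes at 10 CPM or more in every gut library could enter a lower list, while the base of 12732 genes also holds others. All lower lists were set against the same gut values, so part of this overlap was built in. Nothing is read from it about likeness among the axial gland libraries. Replicates 1 and 3 had 116 lower genes in common, 38.0% and 43.0% of their lists.

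**Figure D3:**
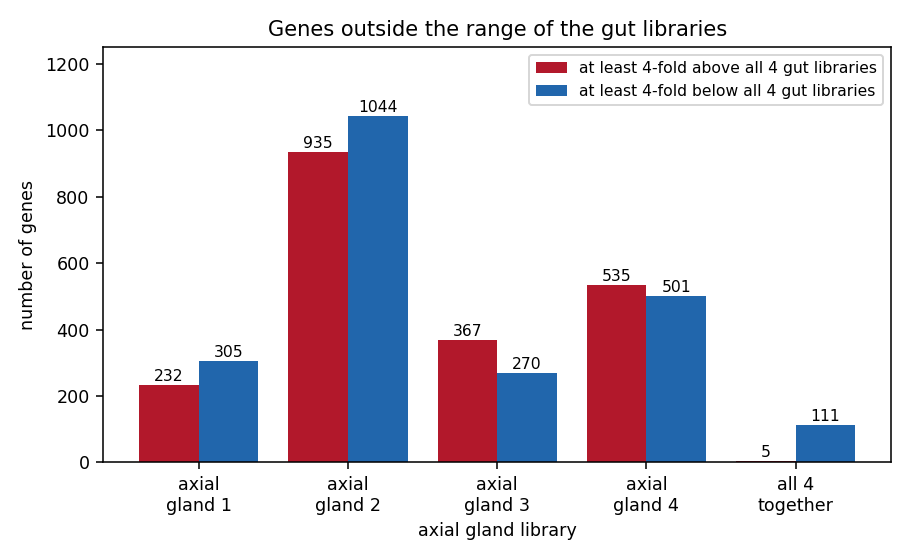
Number of genes at least 4-fold above (red) or below (blue) all 4 gut libraries in each axial gland library and in all 4 together. The counts reach 935 and 1044 in replicate 2, while 5 and 111 genes pass in all 4 libraries.

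The higher genes of each library were then read in the other sample types. Of the 232 in replicate 1, 37.5% had rectum as their highest type apart from axial gland and gut, against 11.8% of all 12732 genes. Of the 935 in replicate 2, 30.05% were highest in coelomic fluid (10.4% of all) and 14.9% in radial nerve (3.96% of all). In replicate 3, 16.9% were highest in esophagus (9.32% of all). Tube foot with 13.1% (3.83% of all) and lantern muscle with 12.8% (3.64% of all) lay further above their share of all genes. In replicate 4, coelomic fluid led with 18.5% (10.4% of all), as it did in replicate 2. Radial canal with 17.4% (5.93% of all), radial nerve with 13.1% (3.96% of all) and lantern muscle with 12.3% (3.64% of all) lay further above their share. Rectum was also the leading type of the lower genes of all 4 libraries, with 35.1%, 43.3%, 55.9% and 51.3% in replicates 1 to 4, so in replicate 1 it led both lists at similar shares.

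Of the 5 genes 4-fold above gut in all 4 libraries, 3 were the called genes LOC121431648, LOC121432030 and LOC121431073. The remaining genes, LOC121417375 and LOC121417338, were highest in rectum. LOC121417375 had 359.1, 24.1, 78.8 and 59.9 CPM in axial gland, 0 to 4.39 CPM in gut and a mean of 319.5 CPM in rectum. LOC121417338 had 153.0, 13.7, 27.2 and 19.98 CPM in axial gland, 0 to 1.72 CPM in gut and 175.3 CPM in rectum. For both, replicate 1 was the highest axial gland library by a wide margin, and neither was called in the 4 against 4 test.

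To read how far the tract appeared in each axial gland library, sets of genes were chosen for gut, rectum and esophagus on 13 adult types without axial gland. To enter a set, a gene had to average 10 CPM or more in its home tissue and exceed each other type's mean by a factor of 4 or more (0.5 CPM added), with no library of those types reaching any home library. This gave 211 gut, 68 rectum and 38 esophagus genes. For comparison with the 10 adult types outside the tract, sets were chosen again without axial gland and without the type in question, and both were read in those same genes. These sets held 211 to 218 gut genes, 68 to 73 rectum genes and 38 to 40 esophagus genes (67 where mouth was left out). This reading in the same genes was chosen after the data had been seen.

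The gut set took 9.06%, 5.93%, 6.02% and 4.36% of the counts of gut replicates 1 to 4. In axial gland it took 0.438%, 0.0555%, 0.920% and 0.385% in replicates 1 to 4. Read in the same genes, the 38 libraries of the 10 types outside the tract had a median of 0.105% and a maximum of 0.351%, in radial canal replicate 3. Axial gland replicates 1, 3 and 4 lay above all 38 of these libraries and below every gut library, and replicate 2 lay above 4 of them. In the narrower set of 198 genes chosen on all 14 types, replicate 4 held 0.283% and lay above 36 of the 38, with testis replicates 1 and 4 higher.

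The rectum set took 4.07%, 2.18% and 3.99% of the counts of the 3 rectum libraries. Axial gland replicate 1 held 2.43% of its counts in this set, more than rectum replicate 2. The other axial gland libraries held 0.0288%, 0.0815% and 0.0424%. Read in the same genes, the 38 libraries outside the tract had a median of 0.0201% and reached 0.594%, in radial nerve replicate 4. Replicate 1 lay above all 38, and replicates 2, 3 and 4 lay above 28, 33 and 31 of them. In the 26 rectum genes chosen on all 14 types, replicate 1 again lay above all 38, and replicates 2, 3 and 4 lay above 36, 37 and 36.

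The esophagus set took 2.56%, 2.26%, 10.8% and 4.57% of the counts of esophagus replicates 1 to 4. Axial gland replicate 3 held 4.82% and replicate 4 held 1.30%, while replicates 1 and 2 held 0.0328% and 0.00434%. Most of this came from 1 gene, LOC121432014, with 1103745 counts over the 4 axial gland libraries. The whole set had 1286172 counts in replicate 3 and 364828 in replicate 4. Mouth libraries held 6.48% to 10.1% in the 67 esophagus genes chosen without mouth, above all 4 axial gland libraries. Read in the same genes, the other 35 libraries outside the tract had a median of 0.0298% and reached 0.111%, in radial nerve replicate 3. Axial gland replicates 3 and 4 lay above all 35, replicate 1 above 21 and replicate 2 above 2 of them. In the 10 esophagus genes chosen on all 14 types, replicate 3 held 0.0153%, above all 38 libraries, and replicate 4 held 0.00588%, below testis replicate 1 at 0.00815%. The widest 95% Wilson interval among the axial gland shares was that of replicate 3 in the esophagus set, from 4.811% to 4.827%. Such intervals cover counting error only.

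**Figure D4:**
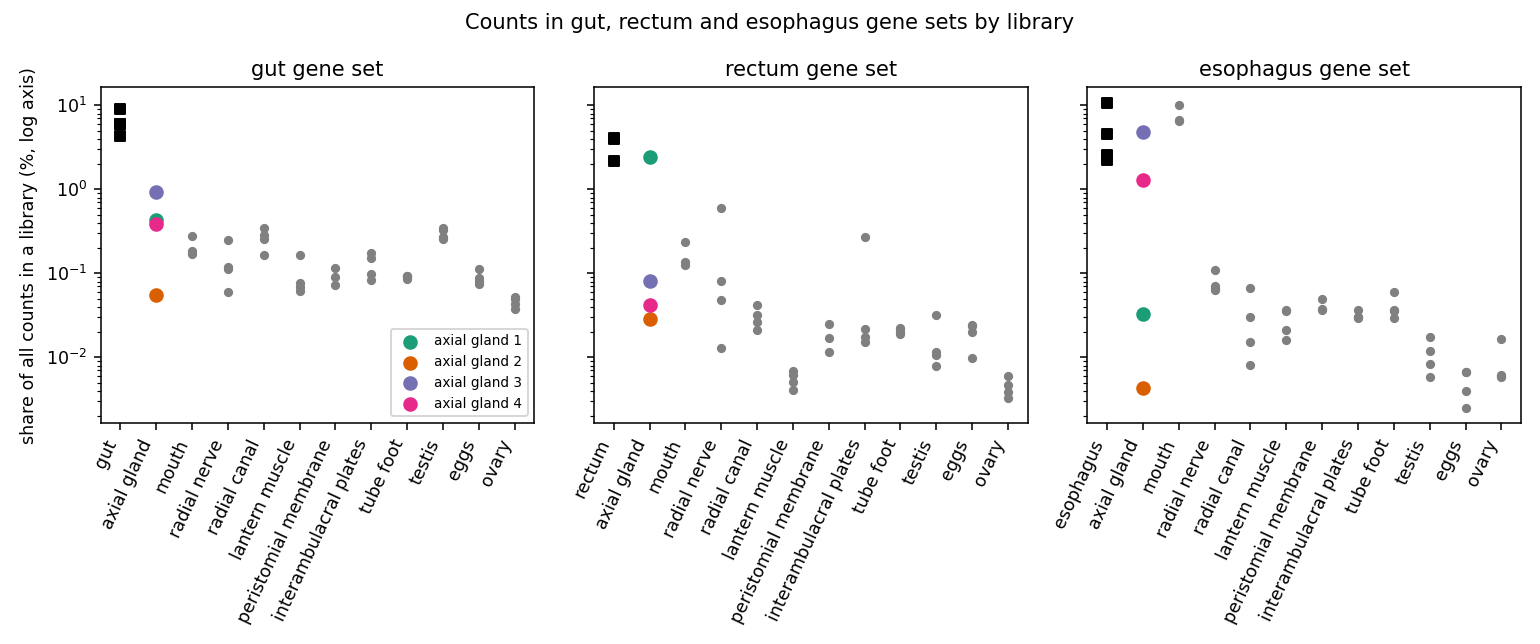
Share of all counts in the gut, rectum and esophagus gene sets, on a log axis, with home libraries as black squares, axial gland libraries in colour and the types outside the tract in grey, each read in sets chosen without axial gland and without that type. Axial gland replicate 1 reaches 2.43% in the rectum set and replicate 3 reaches 4.82% in the esophagus set, both within the range of the home libraries.

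Expressed against the mean share of the home tissue, the gut set stood at 6.90%, 0.875%, 14.5% and 6.07% in axial gland replicates 1 to 4. The rectum set stood at 71.1% in replicate 1 and at 0.845% to 2.39% in the others. The esophagus set stood at 95.45% in replicate 3, 25.8% in replicate 4, 0.650% in replicate 1 and 0.0859% in replicate 2. These percentages depended on which types chose the sets. Chosen on all 14 adult types, a rule that drops genes which axial gland also holds at a high level, the rectum set stood at 24.15% in replicate 1, and the esophagus set stood at 29.0% in replicate 3 and 11.2% in replicate 4. For the gut set the order of the libraries changed as well. With a 2-fold margin replicate 1 was the highest, at 32.9% against 24.6% in replicate 3, and with no demand that libraries be separated replicate 3 stood at 57.7% and replicate 1 at 2.20%. Without gut replicate 4 in the choice, replicate 3 stood at 31.1% and replicate 4 at 11.7%.

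A share can rest on a few abundant genes, so the ratio was also taken gene by gene, with 0.1 CPM added.

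Gene by gene, the rectum set in replicate 1 had a median of 81.4% of its rectum mean, and 41 of the 68 genes reached at least the level of the lowest rectum library. Of these 68 genes, 67 had a count in replicate 1 and 50 stood at 0.5 of the rectum mean or more. In replicates 2, 3 and 4 the medians were 0.916%, 0.899% and 0.949%, and no gene reached 0.5 of the rectum mean. In each of these libraries 61 of the 68 genes had a count, and the 0.1 CPM added weighs on medians this low. The esophagus set in replicate 3 had a median of 79.3%, with 28 of 38 genes at or above the lowest esophagus library. In replicate 4 the median was 23.6%, with 9 genes at or above it, and all 38 genes had a count in both libraries. The medians in replicates 1 and 2 were 0.275% and 0.279%. Only 15 and 27 of the 38 genes had a count there, so these 2 medians depend on the 0.1 CPM added and are not measured levels.

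No axial gland library held most of the gut set at gut level. Its medians were 0.905%, 0.328%, 8.42% and 3.11% in replicates 1 to 4. Of the 211 genes, 157, 141, 205 and 205 had a count in these libraries, so the 0.1 CPM added weighs most on replicates 1 and 2. At or above the lowest gut library were 3, 0, 11 and 1 of the 211 genes. Genes at 1 in 32 of the gut mean or less numbered 129, 182, 47 and 106. In replicate 1 the log2 ratios spread widely, with quartiles of -8.92 and -3.30, while in replicate 3 they were -4.60 and -2.78.

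**Figure D5:**
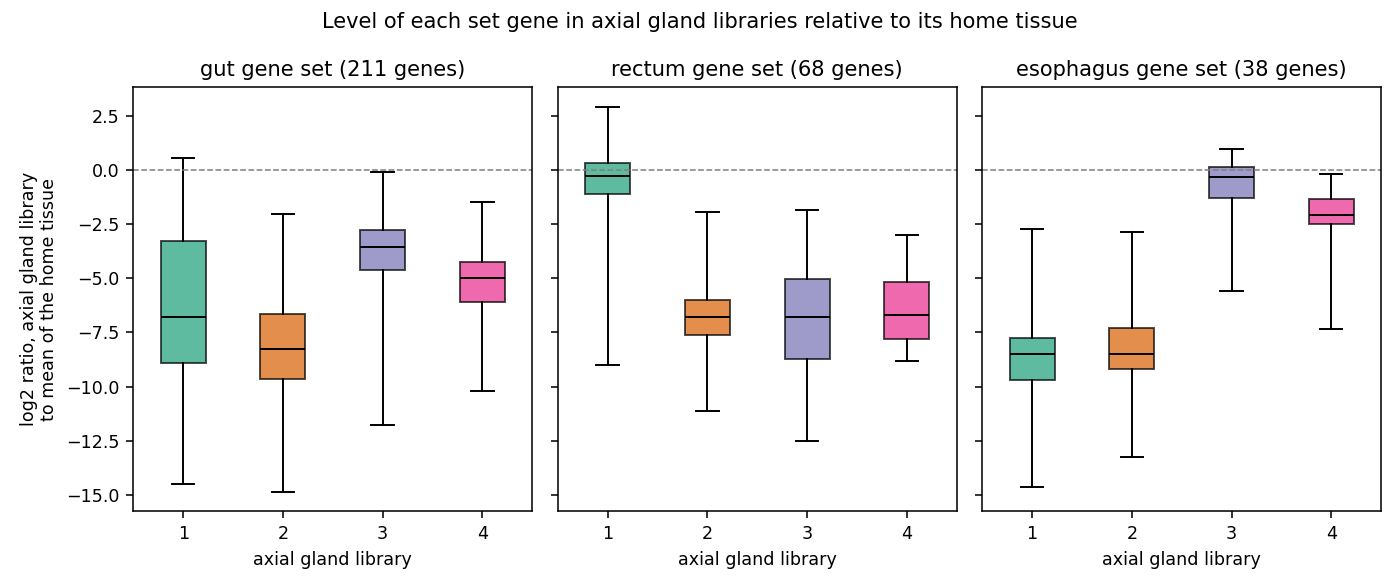
Log2 ratio of each set gene's level in an axial gland library to its mean in the home tissue, 0.1 CPM added, with boxes at the quartiles and whiskers over the whole range. The rectum set in replicate 1 (median -0.30) and the esophagus set in replicate 3 (median -0.33) lie near 0, the level of the home tissue.

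The 3 genes of each set with the highest mean in axial gland are given as a description, since 1 high library can decide that choice. LOC121411748, of the rectum set, had 6183, 39.1, 1.01 and 23.4 CPM in axial gland replicates 1 to 4 and a rectum mean of 6522 CPM. In gut it had 14.8, 0.316, 0.640 and 2411 CPM, with replicate 4 as the high library. LOC121415954 had 3947, 20.1, 3.64 and 6.54 CPM in axial gland and 12.04, 4.74, 1.17 and 1139 CPM in gut, against a rectum mean of 3034 CPM. LOC121415619 was high in more than 1 axial gland library, with 2613, 133.2, 842.6 and 238.8 CPM in replicates 1 to 4 and 252.8, 704.4, 108.6 and 1532 CPM in gut, against a rectum mean of 11020 CPM. For all 3 genes the groups overlapped, and none was called between axial gland and gut.

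LOC121432014, of the esophagus set, had 3.25, 4.63, 41930 and 6507 CPM in axial gland and an esophagus mean of 46530 CPM. Among gut libraries it was at 4628 CPM in replicate 3 and at no more than 8.01 CPM in the others. LOC121415621 had 0.177, 5.65, 7397 and 1949 CPM in axial gland and 31.9, 2.53, 2629 and 12.2 CPM in gut, against an esophagus mean of 7033 CPM. The long non-coding RNA LOC121410366 had 244.6, 12.8, 4456 and 948.6 CPM in axial gland and 186.8 to 543.4 CPM in gut, with an esophagus mean of 4712 CPM. Replicate 3 was the highest of the axial gland libraries and of the gut libraries for all 3 genes.

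In the gut set, LOC121418656 had 27680, 42620, 16790 and 12860 CPM in gut and 1109, 1.22, 1751 and 358.2 CPM in axial gland. LOC121431052 had 14070, 19100, 10380 and 4014 CPM in gut and 3.67, 1.87, 1008 and 304.4 CPM in axial gland. The 2 genes parted in axial gland replicate 1, where the first was at 1109 CPM and the second near the level of replicate 2. LOC121428877 had 583.0, 28050, 2449 and 475.4 CPM in gut, most of it in replicate 2, and 0.919, 2.44, 1133 and 391.8 CPM in axial gland. None of the 3 was called by edgeR between axial gland and gut, with adjusted p of 0.135, 0.157 and 0.274, although LOC121418656 and LOC121431052 did not overlap between the groups.

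Some gut libraries also held genes of the neighbouring stretches. Gut replicate 4 had 0.664% of its counts in the rectum set, against 0.0211% to 0.0412% in the other 3. Gut replicate 3 had 0.548% in the esophagus set, against 0.00573% to 0.0269% in the others. Their weight in the comparison is given with the set medians that follow.

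In the 4 against 4 test itself, 9 of the 211 gut set genes were called lower, with a median log2 fold change of -4.57, where 0.0988% of all genes were called lower. DESeq2 called 189 of them lower, against 6.23% of all genes, and edgeR without axial gland replicate 1 called 88, against 2.44%. Since the set was chosen for high levels in these gut libraries, nothing is read from this direction. Of the rectum set, 56 genes were tested, 0 were called by edgeR and the median was 1.59. That median was -1.99 without axial gland replicate 1, where 2 of 57 rectum set genes tested were called lower (2.44% of all genes), and 4.79 without gut replicate 4. Of the esophagus set, 20 genes were tested, 0 were called and the median was 2.29, which was 0.61 without axial gland replicate 3 and 6.03 without gut replicate 3. DESeq2 called 2 of the 56 rectum and 1 of the 20 esophagus set genes higher, where it called 7.63% of all genes higher.

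Set genes were then tested in axial gland against the mean of the 10 types outside the tract, in 1 edgeR fit of 53 adult libraries. Sets were chosen on all 14 types so that axial gland and the 10 types were treated alike. The fit shares 1 estimate of spread among 14 types, and axial gland libraries were the least alike of any type (median rho 0.782). Its p-values can therefore be too small for axial gland. The mean was taken on the log scale, where types with few counts of a gene pull it down. Over all genes, 3505 of 23383 were called higher in axial gland (15.0%), with a median log2 difference of 0.11. Of the 198 gut set genes, 142 were called higher and 1 lower (3.24% of all genes were lower), with a median of 3.09. Of the 26 rectum set genes, 23 were called higher, with a median of 3.77. Of the 10 esophagus set genes, 9 were called higher, with a median of 4.17. The axial gland libraries were not alike in these 10 genes. By share of counts, replicates 1 and 2 lay above 0 and 1 of the 38 libraries outside the tract. Replicates 3 and 4 lay above 38 and 37 of them.

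These counts changed when single libraries were left out. Without axial gland replicate 1, 5 of the 26 rectum set genes were called (11.7% of all genes), while 132 gut and 9 esophagus set genes were. Without axial gland replicate 3, 5 of the 10 esophagus set genes and 96 of the 198 gut set genes were called (12.1% of all genes), and 22 rectum set genes were. Without replicate 2 the counts were 148, 23 and 9 for gut, rectum and esophagus (13.9% of all genes), and without replicate 4 they were 137, 23 and 9 (15.0%).

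Members of the sets often lay side by side in the genome. In the order of genes in the RefSeq annotation of assembly Lvar_3.0, 52 of the 211 gut set genes (24.6%) had another gut set gene as a direct neighbour, against 1.56% of all genes that lay next to one. For the rectum set these were 21 of 68 (30.9%, against 0.502%) and for the esophagus set 7 of 38 (18.4%, against 0.282%). Neighbouring copies can share sequence, and how reads that match several copies were counted was not given, so values of such neighbours are uncertain. Among the called genes, LOC121410277 and LOC121430036, both lower in axial gland, were direct neighbours.

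A run of 13 neighbouring genes, chosen after its values were seen, held genes of all 3 sets within it. LOC121415615, LOC121415616, LOC121414921 and the long non-coding RNA LOC121415905 belonged to the gut set, LOC121415619 to the rectum set and LOC121415621 to the esophagus set. Of the 13 genes, 10 reached a mean of 100 CPM in gut, rectum or esophagus. The share of all genes at that level is not given here, so nothing is read from this count.

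LOC121415619, high in axial gland replicates 1 and 3 at the values given above, had means of 649.4 CPM in gut and 4.36 CPM in esophagus. Next but one to it, LOC121415621 was high in axial gland replicates 3 and 4, with its values also given above. Between them, LOC121415620 had 2466, 45.2, 579.5 and 168.5 CPM in axial gland, 3620 CPM in gut and 4263 CPM in rectum, but 19.7 CPM in esophagus. LOC121414921 was at 0.0353 and 0.447 CPM in axial gland replicates 1 and 2 and at 89.6 and 37.7 CPM in replicates 3 and 4, with a gut mean of 455.3 CPM and a rectum mean of 2.74 CPM. LOC121415616 was instead at 7.14 CPM in replicate 1 and 7.55 CPM in replicate 3, with 0.0812 CPM in replicate 2 and a gut mean of 134.7 CPM.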

How the data were processed

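The deposited values were raw counts of reads per gene, 1 column per library. The submitters' processing notes list STAR, featureCounts and DESeq2 with no version, and per the labels' protocols polyA libraries of adult tissues were made by 1 provider. The genome build, the annotation and the strand setting were not given in the sources used here. All 25887 identifiers matched a RefSeq table of assembly Lvar_3.0, used only for biotype and gene order.

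Groups followed the labels, and no 2 libraries held identical counts. The members, sets and lists were chosen with earlier results of these data known. Quasi-likelihood tests were run in edgeR 4.0.16 (glmQLFit, glmQLFTest) under R 4.3.3 with limma 3.58.1, using TMM scaling and filterByExpr on the 8 libraries alone. The tract sets were tested in 1 fit of 53 libraries of 14 adult types. A standard error is the log2 fold change over the root of F. The alternatives included the DESeq2 1.42.0 Wald test, other scalings, filters and set rules, and each replicate left out. The tests were checked on simulated counts. Genes were named by rule: in each direction the 6 called genes with the largest fold change and the 4 most abundant, among those that reached a mean of 10 CPM on the higher side without overlap of the 8 libraries, and the 3 genes of each set with the highest mean in axial gland. Genes outside it, namely LOC121417375, LOC121417338, LOC121410277, LOC121430036 and members of the run of neighbours, were named after their values were seen. Protein motif groups were planned and are not analysed here, since no protein sequences were used.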

Additional observations from a re-analysis of the deposited data

Results flagged for a closer look

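Of 62 sets of 4 libraries examined, 14 had 1 library set apart from the other 3 by a gap that was large for the range of the group. Chance gives about 1 in 20 for normally distributed values. That rate does not hold for the unlogged CPM and shares used here. Some genes were also named for a high axial gland mean, which 1 high library can decide. None of these was tested further. In axial gland, replicate 1 stood apart in the share of counts in the rectum set (2.43%), in LOC121411748 (6183 CPM) and in LOC121415954 (3947 CPM), and replicate 3 stood apart in LOC121432014 (41930 CPM).

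In gut, replicate 4 stood apart in the rectum set share (0.664%), in LOC121411748 (2411 CPM) and in LOC121415954 (1139 CPM). Gut replicate 3 stood apart in the esophagus set share (0.548%), in LOC121432014 (4628 CPM), in LOC121415621 (2629 CPM) and in LOC121410366 (543.4 CPM). Gut replicate 2 stood apart in the share of its 10 most abundant genes (46.4%) and in LOC121428877 (28050 CPM), and gut replicate 1 in LOC121431073 (2.41 CPM). The sets were chosen on overlapping libraries and their leading genes belong to them, so these values are not independent of each other.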

How the results depend on the processing

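The counts of genes called between axial gland and gut moved most. Against 6 higher and 17 lower, the DESeq2 Wald test gave 1312 and 1072 (with no adjusted p for 621 genes), no filter 0 and 7, glmTreat against a fold of 2 gave 0 and 7, and 1 fit over the 53 adult libraries 2175 and 834. Without the tract set genes edgeR called 0 and 0, with 3710 genes at an unadjusted p under 0.05 and a lowest adjusted p of 0.0633. Leaving out 1 library gave 0 to 464 higher and 0 to 436 lower, the high ends without axial gland replicate 1, and leaving out axial gland replicates 1 and 3 gave 702 and 607. DESeq2 size factors gave 5 and 17, and scaling without the 10 most abundant genes gave 6 and 17. With the library number as a replicate block edgeR called 0 and 0, with 2871 genes at an unadjusted p under 0.05. Same-numbered axial gland and gut libraries deviated from their group means with correlations of 0.053, 0.008, 0.249 and -0.285, so the numbers were not taken to pair the libraries. The 16 named called genes kept their direction in all 263 values recomputed, and 156 of these values lost the call. These genes were chosen for no overlap of the 8 libraries, so their direction could hardly turn and nothing is read from it.

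Direction turned for 4 genes that were never called. Without axial gland replicate 1, and then without replicates 1 and 3, LOC121411748 moved from 1.35 to -4.90 and -4.33, LOC121415954 from 1.76 to -4.89 and -4.49, and LOC121415619 from 0.53 to -0.71 and -1.87. LOC121415621 moved from 1.78 to -0.11 without axial gland replicate 3. With 1 library left out these 4 genes reached at most 8.21, 7.36, 1.37 and 7.25. Of the set genes called higher than in the 10 types outside the tract, the rectum count was 5 to 23 and the esophagus count 5 to 9 with 1 axial gland replicate left out. The gut set share, a mean of 0.450% over axial gland libraries, was 1.91% with a 2-fold margin, 4.86% with no demand that libraries be separated, and 0.293% to 1.39% with 1 library left out. The upper end came without gut replicate 4, and the cause was not tested. The mean rectum share ran from 0.0509% to 0.850% and the esophagus share from 0.447% to 2.05% with 1 library left out. Chosen on all 14 types, the mean shares were 0.349% for gut, 0.113% for rectum (0.645% before) and 0.00532% for esophagus (1.54% before), since that rule drops genes high in axial gland, and the mean rectum share was 1.21% with no separation. Sets chosen without axial gland and 1 more type kept the means at 0.450% to 0.481%, 0.645% to 0.719% and 1.54% to 1.63%. Depth limits genes near 3 counts in a library, which is 0.102 to 0.138 CPM in axial gland.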

Other observations

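Mixed tract sets also appeared in a tract library outside the comparison. Rectum replicate 2 held 0.863% of its counts in the esophagus set, where rectum replicates 1 and 3 held 0.0234% and 0.0302%. Rectum replicates 1 to 3 held 0.251%, 0.532% and 0.394% in the gut set, where axial gland replicates 1 and 4 held 0.438% and 0.385%. Among the pairs of 1 axial gland and 1 gut library, the most alike were axial gland replicate 1 with gut replicate 4 (Spearman rho across genes 0.870) and axial gland replicate 3 with gut replicate 3 (0.865).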
